A study of Rattus norvegicus with 9 samples.

Results

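The comparison described here is that of proximal colon from rats fed soy protein isolate (SPI) with proximal colon from rats fed casein (CAS), the milk protein of the control diet. Its members are all probe sets of the array, apart from Affymetrix controls, whose mean signal reached 100 on the 3 SPI arrays or on the 3 CAS arrays. This left 5440 of the 8799 probe sets of the rat genome array U34A, of which 4980 had a mean of at least 100 in both diets, 237 with SPI alone and 223 with CAS alone. A single gene symbol was available for 4499 of them, and these stood for 3303 genes.

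The study asked how the protein source of the diet alters colonic mRNA in a model of chemically induced colon cancer. Male Sprague Dawley rats were fed, through their dams from gestation on and by themselves after weaning, AIN-93G-type semi-purified diets that differed in protein source alone, which was CAS, SPI or, in a further group, whey protein hydrolysate (WPH). At 90 days of age every rat, CAS controls included, received azoxymethane (AOM), a colon carcinogen, as 2 weekly subcutaneous injections of 15 mg/kg. Tumor-free tissue of the proximal colon was collected 40 weeks later, so that no group lacked AOM and none held tumor tissue. RNA of 7 rats was combined in equal amounts for each diet, and 3 cRNA targets were prepared in parallel from 8 µg of each pool. Each target (10 µg) was hybridized to 1 array for 16 hours. The 3 arrays of a diet are thus repeats of 1 pool, their spread is technical, and every p-value compares 2 pools rather than populations of rats. The tissue was a segment of the whole colon, and with bulk RNA fewer cells of a type and less RNA per cell cannot be told apart.

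The colon absorbs salt and water through its surface epithelium, lubricates and guards itself with mucins from goblet cells, and moves its contents with smooth muscle under the control of enteric neurons. Absorption of most nutrients, nonheme iron and bile salts belongs to the small intestine, as do Paneth cells, which secrete lysozyme and antimicrobial lectins. Epithelium that is injured or in contact with microbes makes secreted lectins of the Reg family. Macrophages and neutrophils that enter the wall bring osteopontin, matrix metalloproteinases and the calprotectin proteins S100A8 and S100A9.

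All values are MAS 5.0 signals, for which every array had been scaled by the authors to average 500. The median signal ran from 156 to 166 on the CAS arrays and from 154 to 162 on the SPI arrays, and between 58.9 and 60.3% of probe sets reached 100 on the arrays of both diets. Arrays were washed in 3 rounds on 1 day. The 3 CAS arrays shared the first round with 1 WPH array, SPI arrays 1 and 2 shared the second with the other WPH arrays, and SPI array 3 was washed alone. Because SPI and CAS never shared a round, no value within a round exists, and with a term for wash round in the model (the block) SPI is set against CAS only by way of WPH. Diet and wash round cannot be told apart in the comparison without the block. The ratio of signals from the 3' and the 5' end of the β-actin transcript, a measure of RNA integrity and labelling, was 1.83 to 1.88 with CAS and 2.14 to 2.36 with SPI, and its part in the results was not tested. For glyceraldehyde-3-phosphate dehydrogenase the ratios overlapped, at 1.34 to 1.71 and 1.48 to 1.65.

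In this text a transcript rose, fell or changed where the adjusted p of limma, with Benjamini-Hochberg correction over all 5440 probe sets, was under 0.05. It was called where the mean signals as deposited also differed by at least 2-fold. Folds are ratios of mean signals. Where all 3 arrays of the dimmer diet lay under 100, the fold was computed with those signals at 100 and is a lower bound. For a change whose adjusted p was 0.05 or more with that block, the second value follows the first, marked as the value with the block.

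Of the 5440 probe sets, 670 were higher with SPI than with CAS (12.3%) and 575 were lower (10.6%). A call was reached by 131 higher probe sets of 89 named genes (2.41%) and by 186 lower probe sets of 135 named genes (3.42%), which is 5.83% in either direction. Over all of them the log2 change had a median of -0.02. Of the higher calls, 60 had passed the filter through the SPI arrays alone, and of the lower calls 48 had passed through the CAS arrays alone. The changes reached far in both directions, since 10 higher and 10 lower calls were at least 10-fold with signals under 100 set to 100. By the ratio of mean signals as deposited, the median call was 2.72-fold higher or 2.75-fold lower. Every SPI array lay above every CAS array for 1076 probe sets (19.8%) and below every CAS array for 1063 (19.5%), so that the diets did not overlap for 39.3%. With the block, 101 probe sets were higher (1.86%) and 154 lower (2.83%), and of the calls 51 of 131 higher and 100 of 186 lower ones kept an adjusted p under 0.05, while 129 and 185 kept their direction. Without SPI array 3, the array washed alone, 105 probe sets were called higher and 180 lower.

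**Figure D1:**
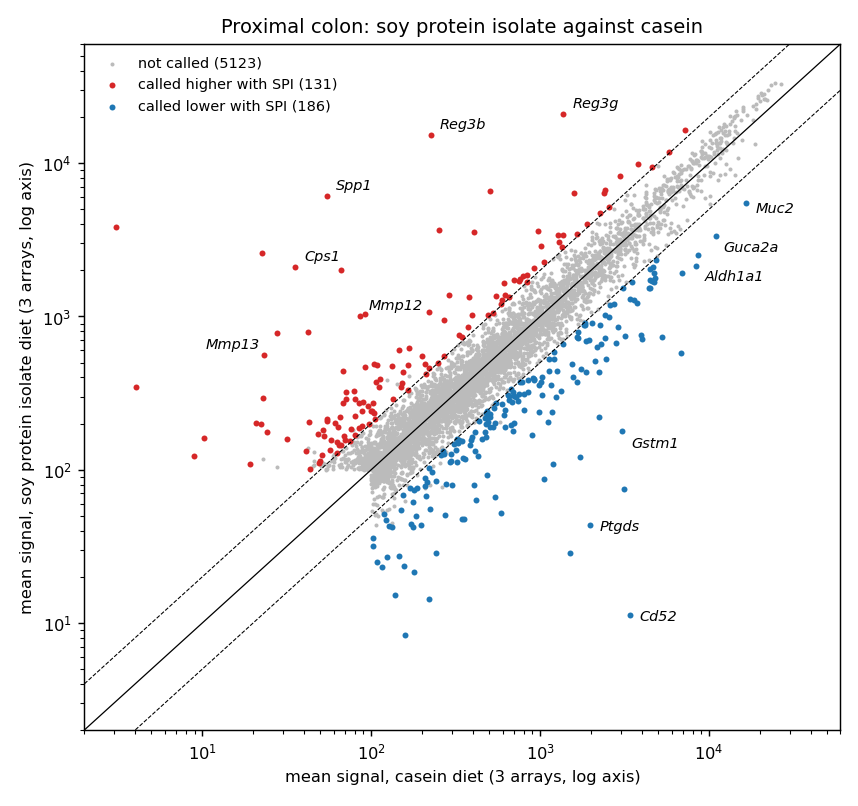
Mean signal with SPI (vertical) against mean signal with CAS (horizontal) for the 5440 probe sets, both on log axes, with the line of equality and dashed lines at 2-fold. Red points are the 131 probe sets called higher with SPI, and blue points the 186 called lower. Among the genes labelled, Spp1 above the line of equality and Cd52 below it lie farthest from that line.

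Transcripts for Reg lectins, for proteins of matrix turnover and inflammation, and for proteins typical of the small intestine stood among the largest increases with SPI. Reg3b, also known as pancreatitis-associated protein, and Reg3g are secreted lectins that kill or repel bacteria at the epithelial surface, and Reg1a is a related secreted protein linked to epithelial regeneration. Reg3b (M98049_s_at) had signals of 263, 198 and 214 on the CAS arrays and 16011, 13503 and 16636 on the SPI arrays. All SPI values were far above all CAS values, the increase was 68.4-fold (adjusted p = 2.95e-10), and Reg3b went from a dim transcript to one of the brightest. Reg3g (L20869_at) was already bright with CAS, at 1448, 1441 and 1232, and reached 21112, 21442 and 20702 with SPI, 15.4-fold higher (adjusted p = 2.95e-10). Reg1a was close to background with CAS, at 2.8, 5.4 and 1.1 on M62930_at, against 4375, 3064 and 4145 with SPI (at least 38.6-fold, adjusted p = 2.12e-07). Its other probe set, E01983cds_s_at, also separated the diets completely, from 60.4, 79.6 and 59.2 to 2150, 1882 and 1994. On the WPH arrays Reg3b averaged 452 ± 56.7 (SD, n = 3) and Reg3g 736 ± 44.9, so that the level with SPI exceeded that with WPH 34-fold and 28.7-fold (adjusted p = 1.46e-09 and 6.19e-11). All 3 tested Reg genes rose, with a median log2 change of 4.93, where 12.0% of the 3303 genes tested rose and 11.2% fell, with a median of -0.02. Reg3a, the remaining Reg gene of the list on the array, had means under 100 in both diets. The study listed Reg genes and many of the genes below from these very arrays, and for such genes the direction is no independent evidence.

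The 3 Reg genes lie side by side on rat chromosome 4, and the bases before the starts of Reg3b and Reg1a are shown because these neighbours moved together. They are from RefSeq (GRCr8), 5′ to 3′ on the strand of the gene, and capitals mark a match to TTCNNNGAA, the letters that STAT factors recognize, at bases -129 to -121 of Reg3b (chr4:112419526-112419775, plus strand) and -242 to -234 of Reg1a (chr4:112450216-112450465, plus strand). Bases are counted back from the gene start.
Reg3b: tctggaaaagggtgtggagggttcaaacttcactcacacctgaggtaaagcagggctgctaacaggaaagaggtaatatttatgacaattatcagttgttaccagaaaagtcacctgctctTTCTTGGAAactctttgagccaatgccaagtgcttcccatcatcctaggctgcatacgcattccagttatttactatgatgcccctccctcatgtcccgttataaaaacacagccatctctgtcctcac
Reg1a: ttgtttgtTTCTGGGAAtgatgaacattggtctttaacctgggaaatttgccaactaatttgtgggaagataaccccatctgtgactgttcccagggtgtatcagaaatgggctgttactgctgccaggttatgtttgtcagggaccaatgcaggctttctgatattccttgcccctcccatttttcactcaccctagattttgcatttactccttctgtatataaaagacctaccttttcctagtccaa
The window before Reg3g (chr4:112484739-112484988, minus strand) held no such letters. The motif reads the same on both strands and was found in 7.67% of 33469 RefSeq windows of the same length, so that a match is a description and not a site.

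Osteopontin and several matrix metalloproteinases rose steeply. Osteopontin (Spp1, M14656_at), a secreted phosphoprotein that binds integrins and is made by macrophages and by epithelium, had signals of 62.8, 59.7 and 42.6 with CAS and 6921, 5334 and 6134 with SPI (at least 61.3-fold higher, adjusted p = 3.36e-09). Of all named probe sets only that of Reg3b had a larger ratio after signals under 100 were raised to 100. Mmp12 (X98517_at), the elastase of macrophages, went from 82.5, 83.6 and 90.7 to 1131, 796 and 1101 (at least 10.1-fold, adjusted p = 6.92e-07). Mmp13 (M60616_at), a collagenase, went from 23.8, 32 and 13.6 to 599, 505 and 586 (at least 5.63-fold, adjusted p = 4.1e-05). Every CAS signal of these 3 genes lay under 100 and every SPI signal over 500. Mmp7, matrilysin, which epithelial cells secrete and which activates defensins in mouse Paneth cells, had dim signals of 84.4, 87.1 and 67.5 with CAS and 284, 236 and 348 with SPI (at least 2.89-fold, adjusted p = 0.001). Cathepsin K (Ctsk), a collagen-degrading protease, was 3.73-fold higher (adjusted p = 1.28e-05). None of Spp1, Mmp12, Mmp13 and Mmp7 was comparably bright with WPH, where the means were 105 ± 31.9, 120.0 ± 31.5, 19.9 ± 8.51 and 68.2 ± 21.9 (SD, n = 3), and the difference between SPI and WPH passed the test for all 4 (adjusted p = 1.63e-08, 1.84e-06, 2.74e-05 and 0.000424).

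Of 15 tested metalloproteinases, plasminogen activators and inhibitors, 8 rose and none fell (median log2 change 0.62, against -0.02 for all genes). Of the 8, Mmp3, Mmp7, Mmp12 and Mmp13 had passed the filter through the SPI arrays alone and could count only as higher, so that 4 of 15 directions were fixed by the filter. Besides those above, Mmp2, a gelatinase of fibroblasts, rose 1.89-fold (adjusted p = 0.000135, or 0.0679 with the block), tissue plasminogen activator (Plat) 1.84-fold (adjusted p = 0.000799, or 0.206 with the block) and the inhibitor Timp2 1.55-fold (adjusted p = 0.00101, or 0.0528 with the block). The inhibitor Timp1 on its brightest probe set was 828, 722 and 688 with CAS and 835, 1043 and 801 with SPI, which overlap (adjusted p = 0.295). With the block, 3 of the 15 kept an adjusted p under 0.05.

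Mmp13, Mmp12, Mmp3 and Mmp7 lie in this order in 1 stretch of rat chromosome 8, and the 250 bases before each start are shown because each holds a match to the same motif. Mmp3, stromelysin, was chosen after its values were seen, and went from 61.1, 59.7 and 67 to 134, 149.6 and 169 (adjusted p = 0.00539, or 0.441 with the block). The sequences are from RefSeq (GRCr8), 5′ to 3′ on the plus strand, at chr8:12782579-12782828 (Mmp13), chr8:12866402-12866651 (Mmp12), chr8:12925031-12925280 (Mmp3) and chr8:13132793-13133042 (Mmp7). Capitals mark TGANTCA, the letters that AP-1 factors recognize, at bases -66 to -60 of Mmp13, -87 to -81 of Mmp12, -71 to -65 of Mmp3 and -80 to -74 of Mmp7.
Mmp13: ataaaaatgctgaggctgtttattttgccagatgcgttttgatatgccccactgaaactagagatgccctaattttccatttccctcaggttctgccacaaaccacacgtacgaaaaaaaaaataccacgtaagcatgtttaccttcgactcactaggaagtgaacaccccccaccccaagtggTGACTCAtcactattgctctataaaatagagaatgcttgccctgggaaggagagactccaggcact
Mmp12: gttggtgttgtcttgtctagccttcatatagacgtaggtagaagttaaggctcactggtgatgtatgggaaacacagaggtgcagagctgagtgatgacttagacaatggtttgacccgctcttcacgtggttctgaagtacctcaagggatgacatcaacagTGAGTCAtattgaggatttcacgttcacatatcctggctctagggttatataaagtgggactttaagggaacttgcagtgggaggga
Mmp3: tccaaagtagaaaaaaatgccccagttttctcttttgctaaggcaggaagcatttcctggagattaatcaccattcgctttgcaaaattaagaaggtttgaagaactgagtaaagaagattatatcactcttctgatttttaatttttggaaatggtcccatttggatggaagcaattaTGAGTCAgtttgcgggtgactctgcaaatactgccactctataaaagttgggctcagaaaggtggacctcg
Mmp7: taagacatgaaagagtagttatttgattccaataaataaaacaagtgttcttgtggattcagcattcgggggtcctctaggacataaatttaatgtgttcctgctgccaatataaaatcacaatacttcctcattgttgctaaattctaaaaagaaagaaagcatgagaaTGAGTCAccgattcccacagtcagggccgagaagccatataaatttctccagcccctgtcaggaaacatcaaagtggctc
The motif reads the same on both strands and occurs in 6.34% of 33469 RefSeq windows of this length. Of the 8 members of the list that rose, 5 had a window, and the 4 shown held the motif. Of the 7 that did not change, 6 had a window and 1, Plaur, held it. These matches describe the letters before the genes and say nothing of which factor was bound.

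Matrix proteins of fibroblasts were also higher with SPI than with CAS. Matrix Gla protein (Mgp, rc_AI012030_at), an inhibitor of calcification, had signals of 1609, 1578 and 1605 with CAS and 6472, 6206 and 6533 with SPI, 4.01-fold higher (adjusted p = 1.52e-08). The spread within either diet was a small part of this difference. Periostin (Postn) rose 2.28-fold (adjusted p = 4.95e-05), decorin (Dcn), a proteoglycan, 1.90-fold (adjusted p = 0.000382, or 0.0954 with the block) and fibronectin (Fn1) 1.54-fold (adjusted p = 0.000165). Collagen alpha1 type I (Col1a1) gave 868, 814 and 845 with CAS and 1905, 1755 and 1948 with SPI on Z78279_g_at (adjusted p = 0.000108, or 0.0947 with the block), and all 4 of its probe sets rose. Biglycan (Bgn), elastin (Eln) and laminin gamma 1 (Lamc1) did not pass the test, with ratios of 1.15-fold, 1.14-fold and 1.18-fold (adjusted p = 0.242, 0.284 and 0.194). Of 21 tested collagens and matrix proteins, 15 rose and 1 fell (median log2 change 0.66), and 4 of the increases kept an adjusted p under 0.05 with the block. Spp1, described above, is in this list and counts among the 15 and among the 4. It was the only 1 of the 21 that had passed the filter through the SPI arrays alone, and it could count only as higher. The gene that fell, chosen after its value was seen, was Sparc, a matrix protein of stromal cells, from 8128, 8289 and 7705 to 6987, 4895 and 6235 (adjusted p = 0.0432, or 0.449 with the block). Unlike Mmp7, Mmp12 and Mmp13, the matrix genes as a set had a similar summed signal with SPI and WPH. Their sum was 35823 to 38271 with CAS, 60976 to 71194 with SPI and 63092 to 73267 with WPH. In the SPI sum Spp1 made up 5334 to 6921. Single genes differed, as SPI lay above WPH in 4 of the 21 genes and below it in 5. Mgp gave 3665, 3441 and 3830 with WPH, below every SPI array.

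**Figure D2:**
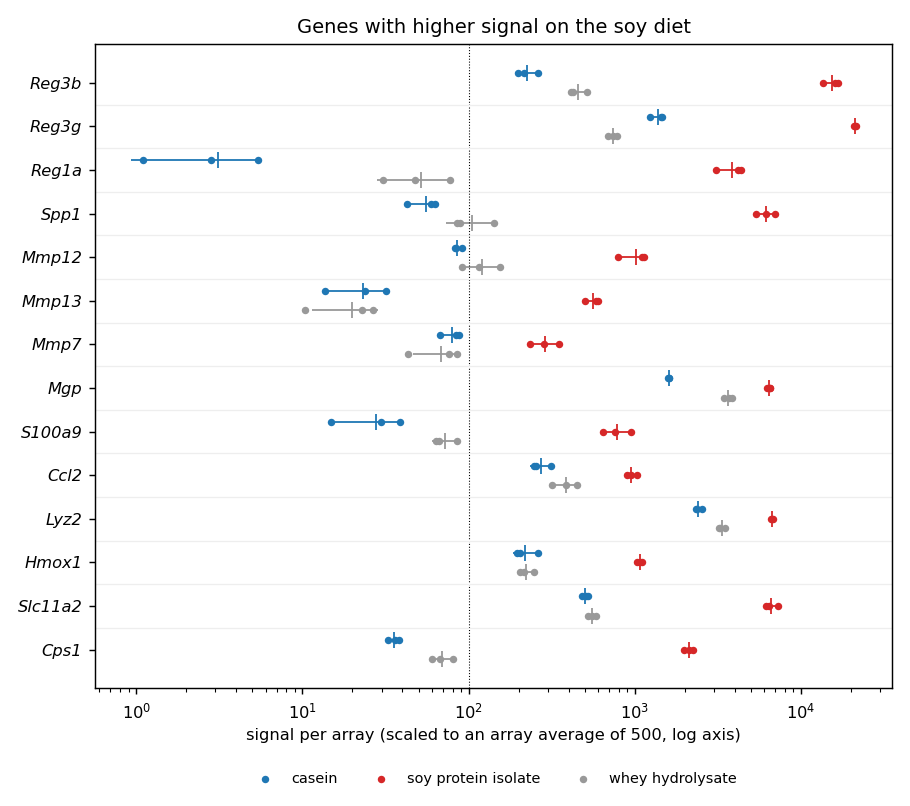
Signal per array on a log axis for 14 genes that were higher with SPI, with 1 point per array for CAS (blue), SPI (red) and WPH (grey), a tick at each mean and a horizontal bar of 1 SD, and a dotted line at a signal of 100. For each gene all 3 SPI points lie to the right of all CAS and all WPH points, from Reg3b, at 13503 to 16636 with SPI, to Cps1, at 1967 to 2235.

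Some genes of neutrophils and of acute inflammation rose, several of them from signals under 100. S100a8 and S100a9 encode calprotectin, the main cytosolic protein of neutrophils. S100a9 (L18948_at) gave 29.6, 38.6 and 14.8 with CAS and 952, 757 and 639 with SPI (at least 7.83-fold, adjusted p = 2.31e-06). S100a8 gave 4.1, 3.5 and 4.6 and 329, 267 and 446 (at least 3.47-fold, adjusted p = 0.000603, or 0.117 with the block). Both were dim with CAS and WPH and clearly above 100 on each SPI array. Ccl2, a chemokine that draws monocytes, rose from 247, 312 and 254 to 946, 891 and 1026 (3.52-fold, adjusted p = 8.84e-06), and complement C3 rose from 36.8, 74.1 and 53.8 to 252, 165 and 208 (at least 2.08-fold, adjusted p = 0.0113, or 0.122 with the block). The adhesion molecule Vcam1 rose 1.80-fold (adjusted p = 0.00108, or 0.221 with the block), whereas Cx3cl1, a membrane-bound chemokine of epithelium, fell 1.71-fold (adjusted p = 0.01, or 0.142 with the block). Of 16 tested genes of this group 8 rose and 1 fell, with a median log2 change of 0.70. However, 5 of the 16, S100a8, S100a9, Lcn2, Cxcl10 and C3, had passed the filter through the SPI arrays alone and could count only as higher, and 2 of the increases kept an adjusted p under 0.05 with the block.

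Macrophage genes were mixed in direction. Lysozyme 2 (Lyz2), an antibacterial enzyme of macrophages and Paneth cells, rose from 2379, 2331 and 2526 to 6711, 6601 and 6765 (2.77-fold, adjusted p = 2.11e-07). Apolipoprotein E (Apoe), which macrophages secrete, rose 2.26-fold (adjusted p = 1.94e-05) and the complement subunit C1qb 1.81-fold (adjusted p = 0.00027). Heme oxygenase 1 (Hmox1), which breaks down heme, rose from 260.3, 204 and 195 to 1026, 1103 and 1074 on its brighter probe set (4.86-fold, adjusted p = 8.98e-07), and its other probe set rose as well. Galectin 3 (Lgals3), made by macrophages and colonic epithelium alike, fell from 10827, 12386 and 10582 to 8265, 7272 and 7791 (1.45-fold, adjusted p = 0.00122, or 0.121 with the block). In all, 8 of 15 macrophage genes rose and 3 fell (median log2 change 0.57), and 4 increases were kept with the block.

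Lymphocyte transcripts also differed. The T cell receptor subunit Cd3g rose on S79711_at, the probe set that stands for it in the list of T cell genes, from 117, 102 and 87.1 to 239, 275 and 307 (2.68-fold, adjusted p = 0.000193, or 0.0913 with the block), and on S79711_g_at from 66.6, 77 and 70 to 297, 329.5 and 338 (at least 3.21-fold, adjusted p = 3.78e-06). Signals rose also for Cd8a, the coreceptor of cytotoxic T cells, from 21.9, 23 and 21.9 to 227, 143 and 227 (at least 1.99-fold, adjusted p = 2.12e-05). With WPH, Cd8a averaged 250 ± 70 (SD, n = 3). Thy1, a surface protein of T cells and neurons in the rat, had signals of 1405, 1594 and 1383 with CAS and 2859.6, 2739.7 and 1032 with SPI, where SPI array 3 lay below every CAS array (adjusted p = 0.336). Of 17 T and natural killer cell genes, 5 rose and none fell (median log2 change 0.46), but 3 of the 17 had passed the filter through the SPI arrays alone, and 1 of the 5, Cd8a, kept an adjusted p under 0.05 with the block. Immunoglobulin probe sets have no single gene symbol and are named here as the study names them. The Ig gamma-2a probe set (L22654_at) was near background with CAS, at 15.6, 7.5 and 44.8, and gave 2527, 2761 and 2531 with SPI (at least 26.1-fold, adjusted p = 1.8e-06). Signals of an Ig light chain (U39609_s_at) went from 3914, 3351 and 4069 to 9530.1, 11832 and 8441 (2.63-fold, adjusted p = 6.85e-05). The kappa constant region (M18528cds_f_at) rose 2.48-fold (adjusted p = 0.000392, or 0.0732 with the block). By contrast, the B cell receptor subunit Cd79b was 765, 632 and 618 and 539, 634 and 570.4, overlapping (adjusted p = 0.346). The list of B cell and immunoglobulin genes had only 3 tested members, Cd79b, Cd37 and the Fc receptor gene Fcgrt, and none of them changed.

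On the brightest probe set of each gene, the antigen presentation genes that changed were higher with SPI. Of 18 tested genes, 6 rose and none fell, with a median log2 change of 0.15, and none of the 6 kept an adjusted p under 0.05 with the block. The class II chain RT1-Ba rose 1.90-fold (adjusted p = 0.00056, or 0.205 with the block). RT1-Bb, its partner, rose from 396, 366 and 431 to 1013, 1021 and 1014 on X56596_at, which is not its brightest probe set (2.55-fold, adjusted p = 1.12e-05), while 2 of its 4 probe sets, M36151cds_i_at and U65217_i_at, fell, so that no single direction holds for it. Among 10 interferon response genes 2 rose and 1 fell, and 2 of the 10 had passed the filter through the SPI arrays alone. Ifitm3, an antiviral membrane protein, rose 1.83-fold (adjusted p = 1.8e-05) and Rsad2, another antiviral protein, fell 2.24-fold (adjusted p = 0.00305, or 0.102 with the block).

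Among transcripts characteristic of small intestinal enterocytes, Slc11a2, Cps1, Otc, Rbp2, Apob and Apoa1 rose, whereas Fabp1 and Fabp2 fell. Lct and Alpi, of the same gene list, did not pass the test (adjusted p = 0.977 and 0.561). Its members Si, Slc2a2, Slc15a1, Mme, Cubn, Treh, Enpep and Cyp3a18 had means under 100 in both diets. Slc11a2 encodes DMT1, the brush border carrier of ferrous iron. On rc_AA892390_s_at its signal went from 242, 279 and 234 with CAS to 3740, 3519.5 and 3744 with SPI (14.6-fold, adjusted p = 1.93e-09). All 3 of its probe sets rose, and AF008439_g_at was brighter, with 478, 523 and 509.7 and 6437, 7270 and 6187 (13.2-fold). With WPH that probe set averaged 554 ± 33.1 (SD, n = 3), near the CAS level. Of 17 genes of iron uptake, storage and heme, Slc11a2, Hmox1 and the ferric reductase Cybrd1 rose and none fell, a count near the 12.0% of all genes that rose. Cybrd1 was dim, at 69.6, 72 and 56.7 and 159, 128 and 146 (adjusted p = 0.0129, or 0.343 with the block), and did not pass the test without SPI array 1. It had passed the filter through the SPI arrays alone and could count only as higher.

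Cps1, carbamoyl phosphate synthetase, and Otc, ornithine transcarbamylase, catalyse the mitochondrial steps of the urea cycle, which in the gut serve citrulline synthesis. Cps1 (M12335expandedCDS_s_at) was below 100 on every CAS array, at 38, 36.2 and 32.6, and reached 2126, 1967 and 2235 with SPI (at least 21.1-fold, adjusted p = 1.72e-09). Otc went from 57.2, 60.9 and 47.2 to 208, 239 and 197 (at least 2.15-fold, adjusted p = 0.00057, or 0.0996 with the block). The arginine precursor enzyme Ass1 rose from 347, 300 and 344 to 740.2, 740.4 and 800.2 (2.30-fold, adjusted p = 2.15e-05) and was higher still with WPH, at 1552 ± 146 (SD, n = 3). Ornithine aminotransferase (Oat) rose 2.34-fold (adjusted p = 0.00181, or 0.213 with the block), and mitochondrial arginase (Arg2) fell from 616, 619 and 613 to 188, 204 and 181 (3.22-fold, adjusted p = 0.00214, or 0.154 with the block). Of 18 genes of the urea cycle and of arginine and polyamine metabolism 7 rose, 4 fell and the median log2 change was 0.00, and 3 of the 18 had passed the filter through the SPI arrays alone.

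Carriers of vitamins and lipids were divided. The retinol binding protein of enterocytes, Rbp2, rose from 83.5, 111 and 80.4 to 481, 429 and 495 (5.11-fold, adjusted p = 0.000587, or 0.136 with the block). Apolipoprotein B (Apob, M27440_at), the core protein of chylomicrons, rose from 63.5, 69.1 and 72.1 to 336, 448 and 541 (at least 4.42-fold, adjusted p = 1.39e-05). Apolipoprotein A-I (Apoa1) rose from 592, 579 and 479.9 to 1264, 1529 and 1316 (2.49-fold, adjusted p = 8.33e-05, or 0.0667 with the block), and with 223 ± 36.8 it was lower with WPH than with either diet (SPI against WPH, adjusted p = 3.35e-07). Fabp2, the intestinal fatty acid binding protein, fell instead, from 1769.9, 1744 and 1454 to 407, 361 and 354 (4.43-fold, adjusted p = 0.00115, or 0.341 with the block), and Fabp1, the liver type, fell from 1593, 1706 and 1702 to 679.5, 681 and 814 (2.30-fold, adjusted p = 2.24e-05). No array of 1 diet overlapped the other for any of these 5 genes. Fabp6, the ileal bile acid binding protein, gave 3989, 3832 and 3480.2 and 3546, 4355 and 4117, overlapping (adjusted p = 0.574). Of 24 tested small intestinal genes 10 rose and 4 fell, with a median log2 change of 0.17 on the brightest probe set of each gene and 0.50 over all their probe sets. The filter had passed 5 of the 24 through the SPI arrays alone and 1 through the CAS arrays alone, and 3 of the increases and 1 of the decreases kept an adjusted p under 0.05 with the block.

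Further enzymes and secreted proteins of epithelium rose as well. Aldolase B, the fructose-cleaving aldolase of small intestine, liver and kidney, has no single symbol on this array. Its exon 9 probe set (X02291exon_s_at) rose from 355, 502 and 366 to 3899.9, 2867 and 3872 (8.70-fold, adjusted p = 6.12e-07) and its exon 2 probe set (X02284_at) 2.71-fold (adjusted p = 2.3e-05). Prap1, a proline-rich acidic protein secreted by intestinal epithelium, rose from 132, 76.4 and 67.1 to 1020.4, 1124 and 991 (11.4-fold, adjusted p = 2.09e-05). Papss2, which makes the sulfate donor for conjugation and for mucin and matrix sulfation, rose from 985, 912 and 1031 to 3626, 3811 and 3469 (3.72-fold, adjusted p = 7e-07). Xanthine dehydrogenase (Xdh) rose from 413, 362 and 369 to 1373, 1236 and 1382 (3.49-fold, adjusted p = 6.92e-07). All of these were also above their WPH levels, at 9.52e-08, 1.01e-05, 1.63e-08 and 5.23e-05 (adjusted p of SPI against WPH for aldolase B exon 9, Prap1, Papss2 and Xdh). The peptidase Anpep rose on the dimmer of its 2 probe sets (4.09-fold, adjusted p = 0.00154). The brighter gave 349.6, 301.5 and 301 with CAS and 349.7, 324.5 and 351.8 with SPI, which overlap (adjusted p = 0.575). In the marker list of Paneth cells, 3 of 4 tested genes rose, namely Reg3g, Lyz2 and Mmp7, the last of which had passed the filter through the SPI arrays alone, while Pla2g2a, a secreted antibacterial phospholipase, gave 907, 877 and 908 and 1129, 1092 and 1215 (adjusted p = 0.0808). The Paneth cell marker Defa5 had means under 100 in both diets. The summed signal of the 4 tested Paneth markers was 4734 to 4819 with CAS and 29031 to 29370 with SPI. Most of the sum with SPI was Reg3g, at 20702 to 21442, and Lyz2, at 6601 to 6765. The part of Paneth cells in the increases was not tested.

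**Figure D3:**
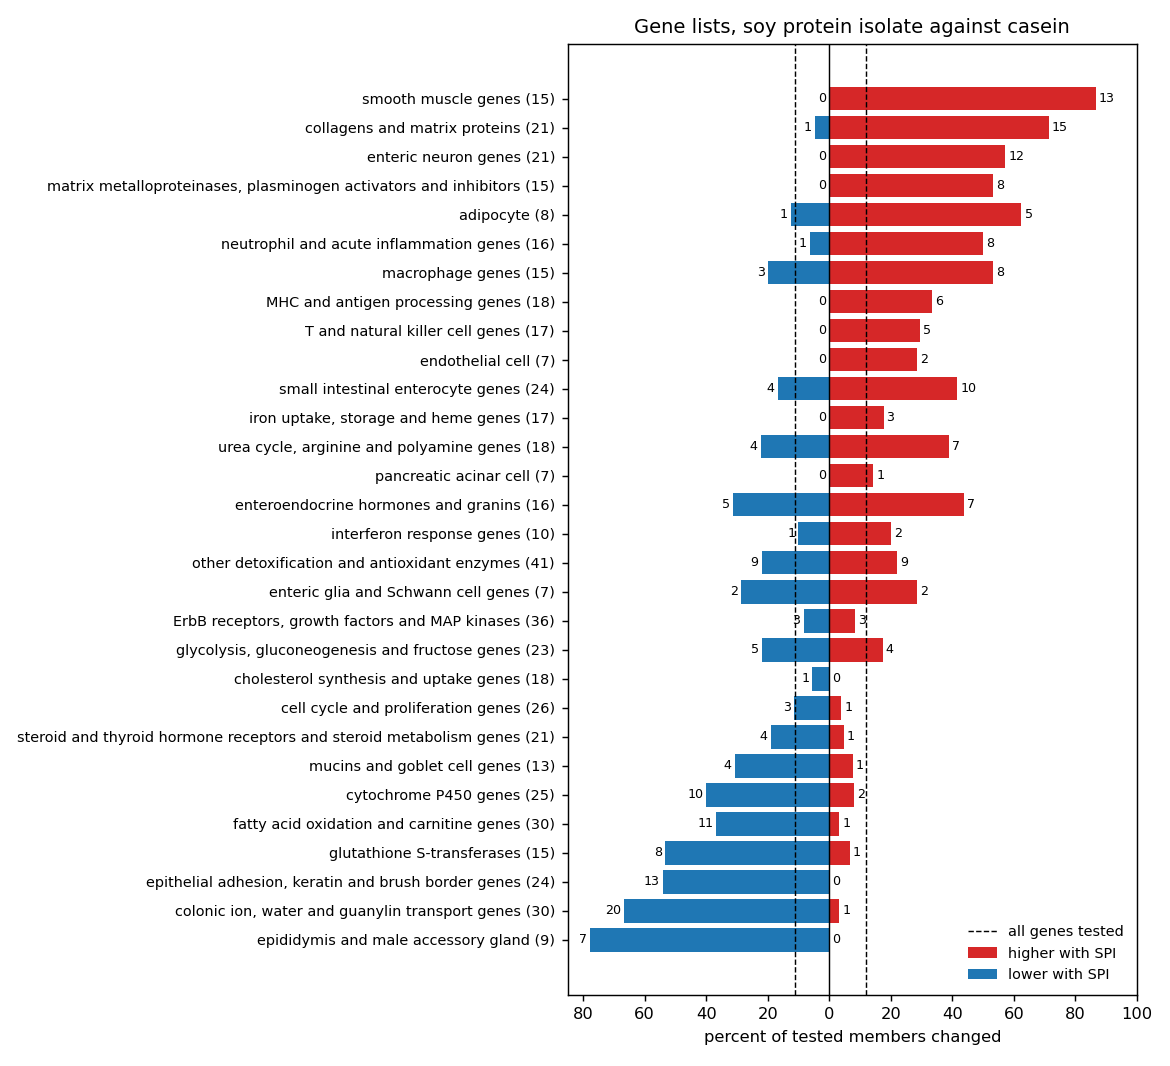
Percent of the tested members of 30 gene lists, each with 7 or more tested members, that rose (red, to the right) or fell (blue, to the left) with SPI against CAS at an adjusted p under 0.05, with the number tested in brackets and the number changed at each bar, and dashed lines at the 12.0% and 11.2% of all genes that rose and fell. Smooth muscle (13 of 15) and matrix genes (15 of 21) rose most often, and 20 of 30 colonic transport genes fell. Of the 9 epididymis and accessory gland markers, a list written with these results known, 5 had passed the filter through the CAS arrays alone and could count only as lower, as 5 of the 16 neutrophil genes and 4 of the 15 metalloproteinase genes could count only as higher.

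The transporters by which colonic epithelium moves salt, water and short chain fatty acids were lower with SPI. Of 30 tested genes, 20 fell and 1 rose, with a median log2 change of -0.73, and 13 of the decreases kept an adjusted p under 0.05 with the block. Guanylin (Guca2a), the peptide that opens epithelial chloride secretion through guanylate cyclase C, was among the brightest transcripts with CAS, at 11375, 9793 and 11997, and gave 3384, 3599.7 and 3133 with SPI (3.28-fold lower, adjusted p = 4.84e-07). The gap between the diets was wider than the spread of either. The water channel Aqp3 fell from 2116, 2150.1 and 2095 to 480.2, 538 and 521 (4.13-fold, adjusted p = 1.8e-06). Carbonic anhydrase 4 (Car4, S68245_g_at), which supplies bicarbonate at the apical membrane, fell from 4641, 4372 and 4355 to 1612, 1834 and 1707 (2.59-fold, adjusted p = 1.03e-06). In contrast to guanylin, its relative uroguanylin (Guca2b) gave 390.3, 384 and 451 and 419, 397 and 426, which overlap (adjusted p = 0.973).

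Several of these genes respond to aldosterone or carry out sodium and potassium transport. Scnn1a, the alpha subunit of the epithelial sodium channel, fell from 836, 854 and 854 to 296, 336 and 328 (2.65-fold, adjusted p = 1.24e-05). Sgk1, the kinase that raises channel number at the membrane, fell from 996, 919.9 and 1029.7 to 375, 312 and 380 (2.76-fold, adjusted p = 2.55e-05). Hsd11b2, which protects the mineralocorticoid receptor from glucocorticoids, fell 2.08-fold (adjusted p = 6.15e-05). The colonic proton and potassium pump Atp12a fell from 1078, 990 and 992 to 407, 391 and 417 (2.52-fold, adjusted p = 0.000403, or 0.108 with the block), and the potassium channel Kcnk1 2.69-fold (adjusted p = 4.77e-05). Slc16a1, the monocarboxylate carrier of butyrate, fell from 2236, 1871 and 2011 to 894, 899 and 921 (2.25-fold, adjusted p = 1.24e-05), and both of its probe sets fell. A sodium transporter named by the study (X59677mRNA_s_at) fell from 8677, 8637 and 8401 to 2367, 2659.5 and 2534 (3.40-fold, adjusted p = 1.24e-06), and its ClC-2 chloride channel (AF005720mRNA#3_s_at) fell 3.26-fold (adjusted p = 2.5e-05). The basolateral cotransporter Slc12a2 was 1851, 2176 and 1541 and 1844, 1653 and 2044, overlapping (adjusted p = 0.993). Levels with WPH lay lower still for most of the list, as SPI exceeded WPH for 18 of the 30 genes and fell below it for 1, where 10.4% and 9.83% of all probe sets did.

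The main mucin transcripts Muc2 and Muc3 fell, while other members of the list of mucins and goblet cell genes were split. Muc2, the gel-forming mucin of the colon, had signals of 17569, 15382 and 16884 with CAS and 4778, 6832 and 4985 with SPI (3.00-fold lower, adjusted p = 6.19e-05, or 0.0727 with the block). Muc3, a membrane-bound mucin, fell from 7402, 5879 and 7422 to 1859, 2055 and 1894 (3.56-fold, adjusted p = 1.06e-06), as did its other probe sets. Neither gene overlapped between the diets, and with WPH both were lower again, at 1387 ± 305 and 623 ± 66.2 (SD, n = 3). The lectin Zg16 fell 1.85-fold (adjusted p = 6.81e-05) and the differentiation factor Klf4 2.06-fold (adjusted p = 0.00313, or 0.163 with the block). The membrane mucin Muc13 was 4988, 5159 and 4015 and 4808, 4218 and 4625, and Clca4, of the same list, 5496, 7733 and 5309 and 8828, 7424 and 9482, which did not pass the test (adjusted p = 0.806 and 0.107). Of 13 genes, 4 fell and 1 rose (median log2 change -0.20), and 2 of the decreases were kept with the block.

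Of 24 genes for epithelial adhesion, keratins and the brush border, 13 fell and none rose (median log2 change -0.54), and 7 of these kept an adjusted p under 0.05 with the block. Embigin (Emb), a chaperone of monocarboxylate carriers, fell from 2344, 2189 and 2188 to 446, 425 and 439 (5.13-fold, adjusted p = 1.19e-07). Epithelial membrane protein 1 (Emp1) fell 3.47-fold (adjusted p = 4.27e-06), and the brush border metallopeptidases Mep1a and Mep1b fell 2.44-fold and 3.27-fold (adjusted p = 2.45e-05 and 8.74e-05). The pan-epithelial marker Epcam changed less, from a mean of 4124 ± 178 to 2299 ± 138 (SD, n = 3; 1.79-fold, adjusted p = 6.62e-05), and keratin 19 (Krt19) gave 5234, 5644 and 5379.6 and 4750.3, 4612 and 5134 (adjusted p = 0.168). The summed signal of the 24 genes was 70530 to 72130 with CAS, 49595 to 51740 with SPI and 24375 to 25291 with WPH. The share of epithelium in the pools was not measured, and its part in the lower signals was not tested.

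**Figure D4:**
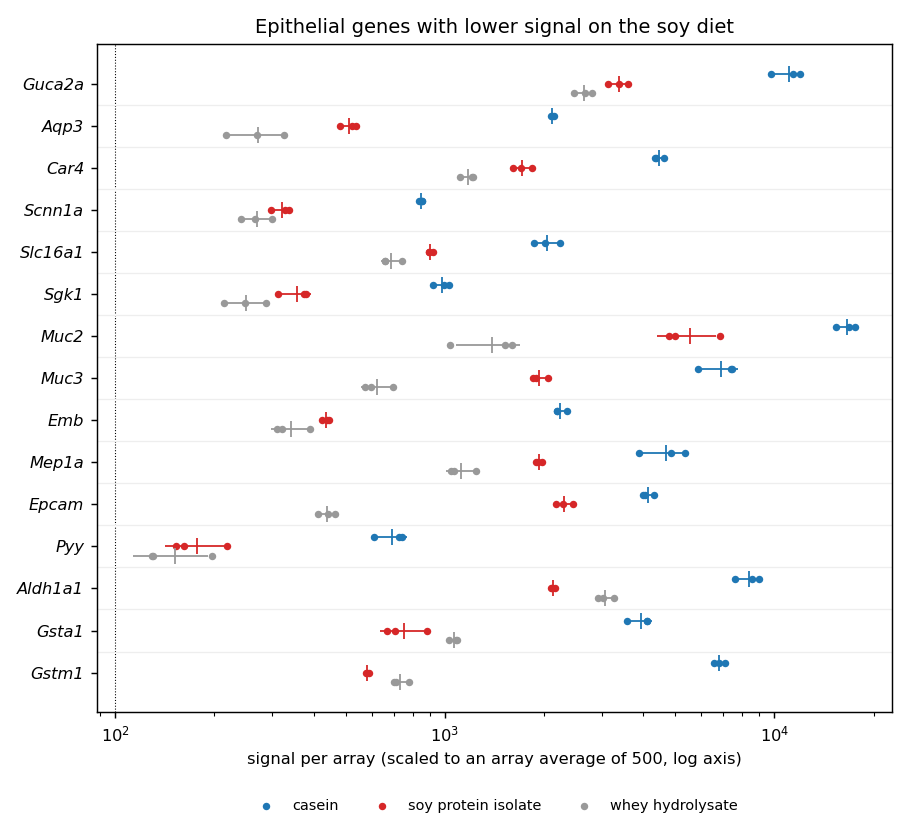
Signal per array on a log axis for 15 epithelial and detoxification genes that were lower with SPI, with 1 point per array for CAS (blue), SPI (red) and WPH (grey), a tick at each mean and a bar of 1 SD. All CAS points lie to the right of all SPI points, and the WPH points lie left of the SPI points for genes such as Muc2, Muc3 and Epcam, and right of them for Aldh1a1, Gsta1 and Gstm1.

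The gut hormones Pyy, Gcg and Cck fell, while somatostatin and several proteins shared by endocrine cells and neurons rose. Peptide YY (Pyy), an L cell hormone that slows motility, fell from 744, 611 and 727 to 162, 218 and 153 (3.91-fold, adjusted p = 4.83e-05). Glucagon (Gcg), the precursor of glucagon-like peptides in the same cells, fell from 145, 176 and 146 to 29.9, 16.6 and 24.6 (at least 1.56-fold, adjusted p = 0.00207, or 0.117 with the block), and cholecystokinin (Cck) from 174, 188 and 188 to 46.5, 56.8 and 47.2 (at least 1.83-fold, adjusted p = 0.00171, or 0.149 with the block). Somatostatin (Sst), made in D cells and enteric neurons, rose from 850.3, 805 and 755 to 1207, 1073 and 1196 on M25890_at (1.44-fold, adjusted p = 0.0022, or 0.172 with the block) and 2.10-fold on its dimmer probe set. Chromogranin B (Chgb) fell 1.75-fold (adjusted p = 0.000403, or 0.0877 with the block), and Resp18, a neuroendocrine secretory protein, rose 1.73-fold (adjusted p = 0.000405, or 0.0504 with the block). In this list of 16 genes 7 rose and 5 fell (median log2 change 0.21), and 1 of these changes, that of Pyy, kept an adjusted p under 0.05 with the block. However, 2 of the 16, Gcg and Cck, had passed the filter through the CAS arrays alone and could count only as lower. Through the SPI arrays alone 1 had passed.

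Several enzymes that conjugate or oxidize foreign compounds fell in large steps. Glutathione S-transferases attach glutathione to electrophiles, and several of their probe sets, marked by the suffixes s and f, can match related family members, so that a signal may belong to more than 1 gene. Gstm1 (X04229cds_s_at) had signals of 6559, 7083 and 6780.2 with CAS and 589, 579.7 and 576 with SPI (11.7-fold lower, adjusted p = 3.62e-10), and its dimmer probe set H32189_s_at fell 17.2-fold. Gsta1 (S72505_f_at) fell from 4112, 4122 and 3569.5 to 707, 668 and 882 (5.23-fold, adjusted p = 1.41e-07). Gsta3 (S82820mRNA_s_at) fell from 2543, 2021 and 2310 to 686, 597 and 709 (3.45-fold, adjusted p = 2.21e-05). All 3 probe sets of each of these genes fell. Gstp1, the form most abundant in many tumors, gave 4018, 3929 and 4238 and 4182, 4864 and 4163, overlapping (adjusted p = 0.579). The microsomal form Mgst1 rose from 1111, 802 and 1118 to 2812, 3056 and 2788 (2.86-fold, adjusted p = 8.84e-06). Of 15 genes 8 fell and 1 rose, with a median log2 change of -0.53, or -0.91 over all their probe sets, and 4 of the decreases were kept with the block. Unlike Emb, Mep1a and Epcam above, which exceeded WPH, Gstm1 and Gsta1 were lower with SPI than with WPH (1.25-fold and 1.42-fold, adjusted p = 0.021 and 0.00939).

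Among 25 tested cytochrome P450 genes 10 fell and 2 rose (median log2 change -0.33), and 3 of the decreases kept an adjusted p under 0.05 with the block. Of the 25, 3 had passed the filter through the SPI arrays alone and could count only as higher, among them both genes that rose. Another 3, Cyp4f4 among them, had passed through the CAS arrays alone and could count only as lower. Cyp4f1, a fatty acid hydroxylase, fell from 3989.8, 4669.9 and 4561 to 1642, 1392 and 1550 (2.88-fold, adjusted p = 9.99e-06), and Cyp4f4 from 431, 369 and 447 to 57.2, 79.9 and 54.3 (at least 4.16-fold, adjusted p = 1.01e-05). Cyp3a9, a steroid and drug oxidase, showed no separation at 2527, 2398 and 2517 and 2645, 2725 and 2509 (adjusted p = 0.667). The genes that rose, Cyp1b1 and Cyp7b1, were dim, and went from 41.3, 60.9 and 43.1 to 167, 134 and 213 (adjusted p = 0.00609, or 0.444 with the block) and from 21.6, 73.5 and 60.4 to 199, 171 and 176 (adjusted p = 0.00387, or 0.233 with the block). Aldehyde dehydrogenase 1 (Aldh1a1), which makes retinoic acid, fell from 8530.3, 7585 and 8969.5 to 2096, 2167 and 2118 (3.93-fold, adjusted p = 5.2e-08). Sult1c2a, a sulfotransferase, fell from 1091, 1174 and 896 to 77.3, 83.1 and 102 (12-fold, adjusted p = 1.79e-06). Peroxiredoxin 6 (Prdx6, rc_AA892041_at), which reduces lipid peroxides, fell 1.87-fold (adjusted p = 5.19e-05), as did its other probe sets. A metallothionein probe set (M11794cds#2_f_at) fell from 4344, 4050.1 and 5080 to 1491, 1736 and 1388 (2.92-fold, adjusted p = 1.17e-05). The 41 other detoxification and antioxidant enzymes were even, with 9 higher and 9 lower and a median log2 change of 0.04.

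The serine synthesis genes Phgdh and Psat1 fell, as did 11 of 30 genes of fatty acid oxidation. Phgdh (X97772_g_at) and Psat1, which catalyse the first steps from 3-phosphoglycerate to serine, fell from 1115, 788 and 1056 to 230.1, 253 and 229 (4.15-fold, adjusted p = 5.42e-06) and from 1412, 1355 and 1208 to 296, 419 and 269 (4.04-fold, adjusted p = 6.49e-06). Both genes were separated without overlap, while 1 of the 3 probe sets of Psat1 did not pass the test. The carnitine transporter Slc22a5 fell from 1969, 1491 and 1765 to 458, 587 and 326 (3.81-fold, adjusted p = 0.000106). Acadm, which oxidizes medium chain fatty acids, fell 1.87-fold (adjusted p = 0.000261, or 0.144 with the block) and Cpt1a, the gate of mitochondrial fatty acid entry, 1.49-fold (adjusted p = 0.00142, or 0.376 with the block). Of 30 genes of fatty acid oxidation and carnitine 11 fell and 1 rose (median log2 change -0.23), and 2 of the decreases were kept with the block. Hexokinase 2 (Hk2) fell 1.85-fold (adjusted p = 6.45e-05) among 23 glycolytic and gluconeogenic genes, of which 4 rose and 5 fell. Cholesterol synthesis and uptake hardly moved, with 1 of 18 genes lower and none higher. Among receptors and enzymes of steroid and thyroid hormones, 1 of 21 rose and 4 fell, including the prolactin receptor (Prlr), 2.12-fold lower (adjusted p = 0.00128, or 0.0727 with the block).

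Few genes of cell division and growth signalling changed between these pools. Of 26 tested cell cycle genes 3 fell and 1 rose, where 11.2% of all genes fell and 12.0% rose. Cyclin D1 (Ccnd1), which drives entry into the cell cycle, gave 1831, 2282 and 1982 with CAS and 1619, 1583 and 1994 with SPI, ranges that overlap (adjusted p = 0.24), and none of its 5 probe sets passed the test. By RT-PCR in the single rats of these pools, the study reported Ccnd1 as lower with SPI. Topoisomerase 2 alpha (Top2a), a marker of dividing cells, fell 1.48-fold (adjusted p = 0.00857, or 0.064 with the block), and Pcna, a replication clamp, was 1252, 1579 and 1822 and 1379.6, 1465 and 1333 (adjusted p = 0.487). Of 36 ErbB receptors, growth factors and MAP kinases 3 rose and 3 fell. Erbb2, the receptor also called neu, went from 496, 361 and 454 to 263, 272 and 294 (1.58-fold lower, adjusted p = 0.0113, or 0.12 with the block), and lost this result without CAS array 1. Mapk6, an atypical MAP kinase, fell 1.67-fold (adjusted p = 0.000437, or 0.0911 with the block), while the binding protein Igfbp3 rose 1.87-fold (adjusted p = 0.00148, or 0.098 with the block).

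Transcripts of the muscle wall and its nerves were modestly higher. Of 15 smooth muscle genes, 13 rose and none fell, with a median log2 change of 0.49, but after quantile normalization of the arrays 5 rose, with a median of 0.25, and with the block 3 did. Desmin (Des), an intermediate filament of muscle, went from 12083, 12927 and 11985 to 18248, 17529 and 18314 (1.46-fold, adjusted p = 0.000118, or 0.0794 with the block), and the muscle myosin Myh11 from 12649, 13769 and 13725 to 21260.3, 19296 and 20359 (1.52-fold, adjusted p = 0.000189, not past the threshold after quantile normalization). The summed signal of the 15 genes was 130290 to 131840 with CAS, 184540 to 187360 with SPI and 244750 to 276280 with WPH. Of 21 enteric neuron genes 12 rose and none fell (median log2 change 0.58), and 2 kept an adjusted p under 0.05 with the block. Pcp4, a calmodulin regulator of neurons and muscle, rose from 2071, 2439.7 and 2154 to 4087, 3805 and 4183 (1.81-fold, adjusted p = 6.04e-05). Peripherin (Prph), a neuronal filament, rose 1.73-fold (adjusted p = 0.00015, or 0.0934 with the block), the ubiquitin hydrolase Uchl1 2.14-fold (adjusted p = 0.000186) and synapsin 2 (Syn2), a synaptic vesicle protein, 1.93-fold (adjusted p = 0.000546, or 0.0613 with the block). SPI lay below WPH in 14 of the 21 neuron genes and 10 of the 15 smooth muscle genes, and above it in none and in 1. Glial genes had no common direction, as S100b rose 1.79-fold (adjusted p = 0.00175, or 0.431 with the block) and Pmp22, found in myelin and in epithelial junctions, fell 1.89-fold (adjusted p = 2.21e-05), with 2 of 7 higher and 2 lower. In the adipocyte list 5 of 8 genes rose and 1 fell, and adipsin (Cfd) went from 1334, 1347 and 1150.4 to 2396, 2426 and 2559 (1.93-fold, adjusted p = 2.16e-05). The amounts of muscle, nerve and fat in the segments were not measured, and their part in these results was not tested.

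The 3 largest decreases with SPI, with signals under 100 raised to 100, were of genes that are abundant in the epididymis and had high signals in the CAS pool. Cd52, a surface glycoprotein of lymphocytes and of the epididymal duct, gave 3174, 3687 and 3396 with CAS and 18.6, 7.4 and 7.7 with SPI (at least 34.2-fold lower, adjusted p = 4.84e-07). β-Defensin 1 (Defb1), an antimicrobial peptide of epithelia, fell from 3001, 3084 and 3373 to 86.2, 90 and 48.1 on AF068860_s_at (at least 31.5-fold, adjusted p = 5.89e-05) and from 2180.4, 2177 and 2356 to 264, 126 and 268 on AF093536_at. Ptgds, the lipocalin-type prostaglandin D synthase, fell from 1699, 2359 and 1895 to 60.3, 28.2 and 41.5 (at least 19.8-fold, adjusted p = 1.39e-05). On the first probe set given for each of the 3, every SPI array lay under 100. Adam7, a membrane disintegrin of the epididymis, fell from 1773, 1667 and 1694 to 116, 160.5 and 89 (14.0-fold, adjusted p = 3.72e-06). The serpin Serpina1fl1 fell from 1409, 1534 and 1591 to 33.1, 16.4 and 37 (at least 15.1-fold, adjusted p = 7.7e-06), Cuzd1 at least 5.87-fold (adjusted p = 0.00127) and the protease inhibitor Wfdc6a at least 5.37-fold (adjusted p = 1.39e-05). Between SPI and WPH none of the 7 passed the test on the probe sets given first (adjusted p = 0.391 for Defb1 and 0.944 for Cd52), whereas AF093536_at of Defb1 was higher with SPI (adjusted p = 0.00346).

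In the list of epididymal and male accessory gland markers, written with these results known, 16 of 24 genes were on the array and 9 were tested. Of these 7 fell and none rose, but 5 of the 9 had passed the filter through the CAS arrays alone and could count only as lower. All 7 kept an adjusted p under 0.05 with the block. Their summed signal was 11900 to 13039 with CAS, 1025 to 1200 with SPI and 611 to 980 with WPH. Markers of the list whose mean stayed under 100 in both diets were Svs5, Gpx5, Pbsn, Spink1, Andpro, Ros1 and Acp3. The seminal vesicle genes Svs4 and Svs3a did not pass the test, with 306, 278 and 313 against 188, 231 and 249 and 239.8, 241 and 199 against 266, 345 and 347 (adjusted p = 0.12 and 0.0603). Semenogelin (Semg1), a gene of the same gland named for its place among the largest increases, was not matched to a list entry under this symbol. It is thus outside these counts, and it went the other way. Its signals were higher with SPI, at 31.9, 8.5 and 28.1 against 278, 265 and 337 (at least 2.93-fold, adjusted p = 0.00116, or 0.315 with the block). Semg1 had passed the filter through the SPI arrays alone. All 3 tested germ cell markers had passed the filter through the CAS arrays alone. Smcp, a sperm mitochondrial protein, fell from 254, 232 and 239.5 to 19.6, 42.8 and 23.5 (at least 2.42-fold, adjusted p = 0.000558, or 0.0927 with the block) and Tsx from 157, 122 and 135 to 7.7, 20.6 and 17.2 (adjusted p = 0.00117, or 0.135 with the block), while Prm2 overlapped and Tnp1, Tnp2, Odf1, Ldhc and Akap4 had means under 100. Whether tissue other than colon entered the CAS pool was not tested.

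**Figure D5:**
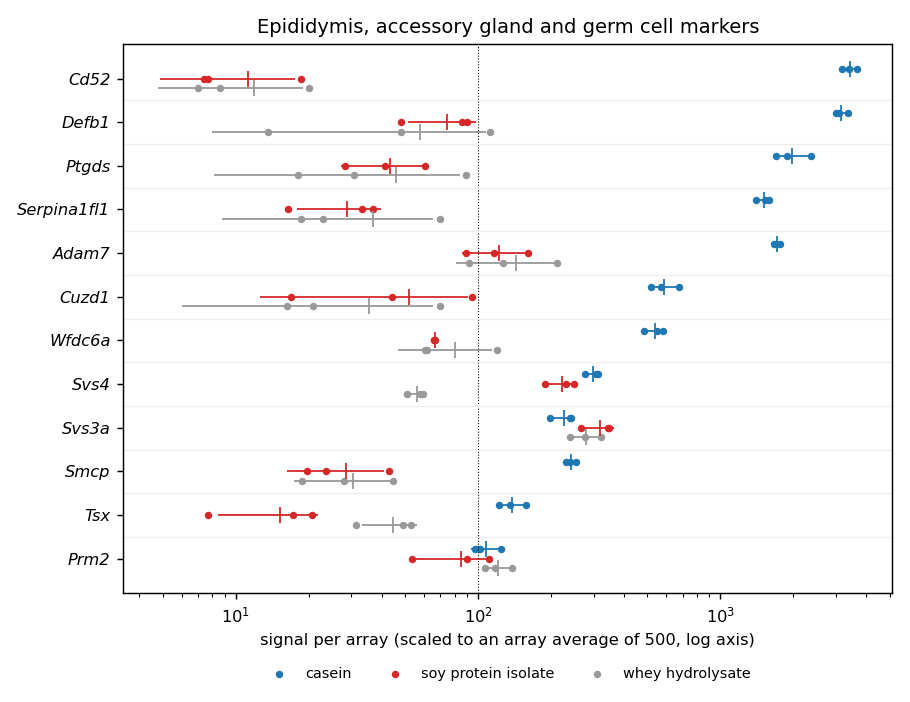
Signal per array on a log axis for the tested markers of epididymis, accessory glands and male germ cells, with 1 point per array for CAS (blue), SPI (red) and WPH (grey), a tick at each mean, a bar of 1 SD and a dotted line at 100. Cd52, Defb1, Ptgds, Serpina1fl1, Adam7, Cuzd1 and Wfdc6a lie at 484 or more on each CAS array and at 268 or less on each SPI and WPH array, whereas Svs4, Svs3a and Prm2 did not pass the test.

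Summed signals of markers of other organs were low. Of 6 tested hepatocyte genes, 3 of which had passed the filter through the CAS arrays alone, 4 fell and none rose, with a summed signal of 1015 to 1192 with CAS, 570 to 732 with SPI and 2436 to 2545 with WPH, and Serpina1, the brightest, went from 412, 441 and 398 to 206, 213 and 234 (adjusted p = 0.000118). Pancreatic acinar markers summed to 1009 to 1139 with CAS and 948 to 1211 with SPI, with 1 of 7 higher, and stomach gland markers to 338 to 514 and 266 to 378, with none of 3 changed. The pancreas also makes Reg1a and Reg3b, and the acinar gene that rose, trypsin (Prss1), went from 71.7, 79.2 and 79.3 to 131, 108 and 151 (adjusted p = 0.0228, or 0.233 with the block), a result lost without CAS array 1, SPI array 1 or SPI array 3. The hemoglobin gene Hbb rose from 506, 469 and 492 to 862, 742 and 788 (1.63-fold, adjusted p = 0.00122, or 0.0516 with the block), and of 7 endothelial genes 2 rose.

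Levels with WPH place these changes. Of the 131 probe sets called higher with SPI than with CAS, 77 were also higher with SPI than with WPH, where 10.4% of all probe sets were, and of the 186 called lower 22 were also lower than with WPH, where 9.83% were. Both comparisons use the same SPI arrays, so that these shares are not independent. Reg3b, Spp1, Cps1, Slc11a2 and Mmp12 stood among the former, and Gstm1, Gsta1 and Aldh1a1 among the latter.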

How the data were processed

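The authors analysed the array images with MAS 5.0 and scaled each of 9 Affymetrix rat U34A arrays to an average signal of 500, and these linear signals were used as deposited. The deposited table holds no detection calls, so that no depth or detection limit could be given, and the number of arrays limits the precision. Wash times were taken from the fluidics part of the deposited instrument settings files, where they stand under hybridization, and arrays started within 30 minutes of each other were counted as 1 wash round. Groups came from the labels.

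Signals under 0.1 were set to 0.1 and converted to log2. Of the 8799 probe sets, 59 controls were left out, and those with a mean of at least 100 in SPI or CAS were fitted with limma 3.58.1 (R 4.3.3; lmFit and eBayes with a variance trend) on all 9 arrays, with Benjamini-Hochberg adjustment. Probe sets were named from GEO's platform annotation, in which 7018 had 1 symbol, 308 several and 1473 none. The script was tested on simulated data. Alternatives changed the floor, filter, normalization, variance model, test, fold minimum, probe sets per gene, arrays in the fit and blocks for wash round and replicate number. Gene lists used the brightest tested probe set of each gene by mean log2 signal. Names in the text were the 25 largest called increases and decreases by ratio of mean signals (signals under 100 set to 100, the higher diet averaging 200 or more and no overlap between the diets), up to 6 changed and 3 bright unchanged members of each list, markers of other cell types, and genes that the study names. The members, lists and rules were chosen with earlier results of these data known. Promoters came from RefSeq (GRCr8). Python 3.11.15, numpy 2.4.6, pandas 2.3.3 and matplotlib 3.10.9 were used for tables and figures.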

Additional observations from a re-analysis of the deposited data

How the results depend on the processing

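The 131 higher and 186 lower calls became 52 and 100 with wash round as a fixed block, 353 and 400 at a 1.5-fold minimum, 56 and 77 at 3-fold, 74 and 117 with 1 probe set per gene, and 69 and 107 where a 2-fold difference in 9 of 9 array pairs was required in place of a test. The 670 higher and 575 lower changes became 101 and 154 with the wash round block, and the higher ones 401 by the methods' t-test after Benjamini-Hochberg adjustment. The cause was not tested beyond what the stricter or looser rule itself removes. Leaving out 1 CAS or SPI array at a time gave 105 to 148 higher and 169 to 193 lower calls, and 460 to 622 higher and 420 to 583 lower changes. All other alternatives stayed within 1.5 times of the counts, among them quantile normalization (127 and 183 calls) and no filter (157 and 216). No named probe set reversed under any alternative, and 109 of 326 lost the test with the wash round block. List medians moved by more than the spread between replicates in 17 of 39 lists with that block and in 6 with signals under 100 set to 100, and in 6 with all probe sets of the listed genes in place of the brightest, among them small intestinal genes (0.17 to 0.50) and glutathione S-transferases (-0.53 to -0.91). Counts of list members after quantile normalization were added after the data were seen.

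Arrays of the same number in CAS and SPI did not deviate together (correlations of -0.156, -0.274 and 0.0193), so that the numbers do not pair the arrays, and with the replicate block 123 probe sets were called higher and 180 lower. With 3 technical arrays of 1 pool per diet, the arrays did not measure differences between rats, and signals under 100 give only bounds. The study measured selected genes by RT-PCR in the single rats of these pools, and those values are not part of these results. With SPI it reported lower Ccnd1, Erbb2, Fabp2 and Muc3 and higher Sst. Decreases of Pyy and Gcg were reported as significant for WPH alone.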
